A study of Mus musculus with 7 samples.

Results

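The tight junction genes described here are Cldn5, Cldn12, Ocln, Tjp1, Cgn, Jam2, F11r, Lsr and Marveld2, chosen by symbol as known parts of the tight junction. All 9 had a row among the 32531 gene symbols of the count files, and all 9 passed the low-count filter, among 17654 genes tested. The tissue was midbrain, taken from adult control mice (Stard8-TRAP ES2342) that received no treatment. Mice of this line carry EGFP fused to the ribosomal protein Rpl10a, driven by regulatory sequence of Stard8, which decides the cells that are tagged. The immunopurified group (IP, 3 libraries, replicates 1, 2 and 4) holds RNA from polysomes captured with antibodies against EGFP. The unbound group (4 libraries, replicates 1 to 4) holds the RNA of the same transgenic tissue that the beads did not capture. No IP replicate 3 was used. The labels give neither the exact age nor the number of animals behind a library, so p-values measure the spread between libraries, which may be technical. The only comparison, IP against unbound, asks which transcripts the tagged ribosomes carried more or less of than the remaining RNA.

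Tight junctions seal the gap between neighbouring cells. Claudins and the MARVEL proteins occludin and tricellulin span the membrane, immunoglobulin-like JAM proteins adhere across the gap, angulins such as LSR mark corners where several cells meet, and plaque proteins such as ZO-1 and cingulin tie the strands to actin. In brain capillaries these junctions form a main part of the blood-brain barrier, with claudin-5 as the leading claudin of endothelial cells. Other claudins and JAM proteins serve epithelia, myelin and leukocytes.

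Libraries held 52052340 to 76114634 counts in genes. Stard8, the gene that drives the tag, had 227 to 440 CPM in IP and 3.51 to 4.89 CPM in unbound. The submitters describe the line as profiling neurons, but all 7 neuron markers were called lower in IP (4 without IP 1, 3 without IP 2). Their summed level was 3032, 3221 and 6651 CPM in IP 1, 2 and 4, against 11480 to 18300 CPM in unbound. All 12 endothelial markers rose, with sums of 2017 to 2885 CPM in IP and 50.04 to 72.2 CPM in unbound. All 8 pericyte and smooth muscle markers rose as well (sums of 2687 to 3975 against 18.1 to 31.9 CPM), as did all 10 microglia and macrophage markers (1197 to 1295 against 40.5 to 71.5 CPM). Of the astrocyte markers 5 of 7 rose, of the ependymal markers 4 of 6 (2 without IP 1) and of the fibroblast and meningeal markers 5 of 7. Ependymal markers summed to 60.4 to 96.4 CPM in IP and 28.6 to 46.1 CPM in unbound, and fibroblast markers to at least 72.1 CPM in each IP library and at most 38 CPM in each unbound library. The part of these cell types in the tight junction results was not tested. Both groups hold bulk RNA of the same tissue. The number of cells of a type behind the captured RNA and the RNA each gave cannot be told apart.

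The promoters of the claudins and of 2 members with high fold changes are shown because the members' RNA moved so unevenly. RefSeq (build GRCm38.p6) gave 12 start sites for 8 of the 9 members, all but Jam2. The 250 bases before each start were searched on both strands for letters bound by endothelial transcription factor families. Capitals mark the ETS letters CCGGAA or their reverse complement. The lines give Cldn5 (chr16:18776597-18776846, plus strand), Cldn12 (chr5:5514977-5515226, minus strand, the farthest upstream of 3 starts), Ocln (chr13:100552719-100552968, minus strand, the upstream of 2 starts) and Lsr (chr7:30973470-30973719, minus strand).
Cldn5: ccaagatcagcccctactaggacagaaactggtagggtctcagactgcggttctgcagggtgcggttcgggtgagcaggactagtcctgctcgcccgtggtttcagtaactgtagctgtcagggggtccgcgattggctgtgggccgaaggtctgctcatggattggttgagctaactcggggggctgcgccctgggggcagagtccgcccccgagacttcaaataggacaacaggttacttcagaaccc
Cldn12: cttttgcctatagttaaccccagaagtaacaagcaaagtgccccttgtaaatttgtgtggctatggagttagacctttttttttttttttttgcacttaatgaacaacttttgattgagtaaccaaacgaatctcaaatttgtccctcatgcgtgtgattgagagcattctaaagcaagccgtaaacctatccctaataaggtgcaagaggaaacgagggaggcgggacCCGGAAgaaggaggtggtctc
Ocln: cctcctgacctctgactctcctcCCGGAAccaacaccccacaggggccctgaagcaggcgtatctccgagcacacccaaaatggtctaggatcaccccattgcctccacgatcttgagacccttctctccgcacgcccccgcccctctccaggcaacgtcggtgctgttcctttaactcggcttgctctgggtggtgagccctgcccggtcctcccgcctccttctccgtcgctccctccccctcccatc
Lsr: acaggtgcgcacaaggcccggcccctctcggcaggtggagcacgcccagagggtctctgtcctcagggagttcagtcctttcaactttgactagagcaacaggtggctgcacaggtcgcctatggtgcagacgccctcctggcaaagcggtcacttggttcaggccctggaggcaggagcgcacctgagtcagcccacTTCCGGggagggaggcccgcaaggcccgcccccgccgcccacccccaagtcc

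The ETS letters stood in windows of Cldn12, Ocln and Lsr, 5 of the 12 windows, and in 3952 of 32851 promoter windows of all genes. The 3 Cldn12 windows overlap and hold 1 and the same occurrence, which begins at base 5514997 of chromosome 5. The window of Cldn5, the member with the highest fold change, held no CCGGAA, while that of Cldn12, which was not higher in IP, held it. The TCF/LEF letters CTTTGA were in the Lsr window alone among members (13.8% of all windows). The FOX letters GTAAACA, the SOX letters ACAAT and the GATA letters AGATAA were in 0 of the 12 windows, against 3.17%, 27.7% and 9.99% of all windows. The member windows were mostly richer in G and C than the median window (52.4%), at up to 70.4%. Exceptions were the Cldn12 window shown (42.0%) and a Marveld2 window (50.4%). They held 6 to 22 CG pairs, against a median of 6 over all windows. The part of base composition in all these shares, the ETS share included, was not tested. A match is a description of letters and not a binding site.

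Of the 9 tight junction genes 7 rose in IP, 0 fell and 2 were not called (edgeR quasi-likelihood test, Benjamini-Hochberg adjusted p under 0.05). Over all tested genes, 20.5% were called higher and 18.9% lower. The members' median log2 fold change was 3.21, against -0.10 over all tested genes. For the same 7 genes every IP library lay above every unbound library, as for 25.1% of all tested genes. For Cldn12 every IP library lay below every unbound library, as for 22.7% of all tested genes, and for Cgn the groups overlapped. The 7 calls were made again without each library in turn.

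**Figure D1:**
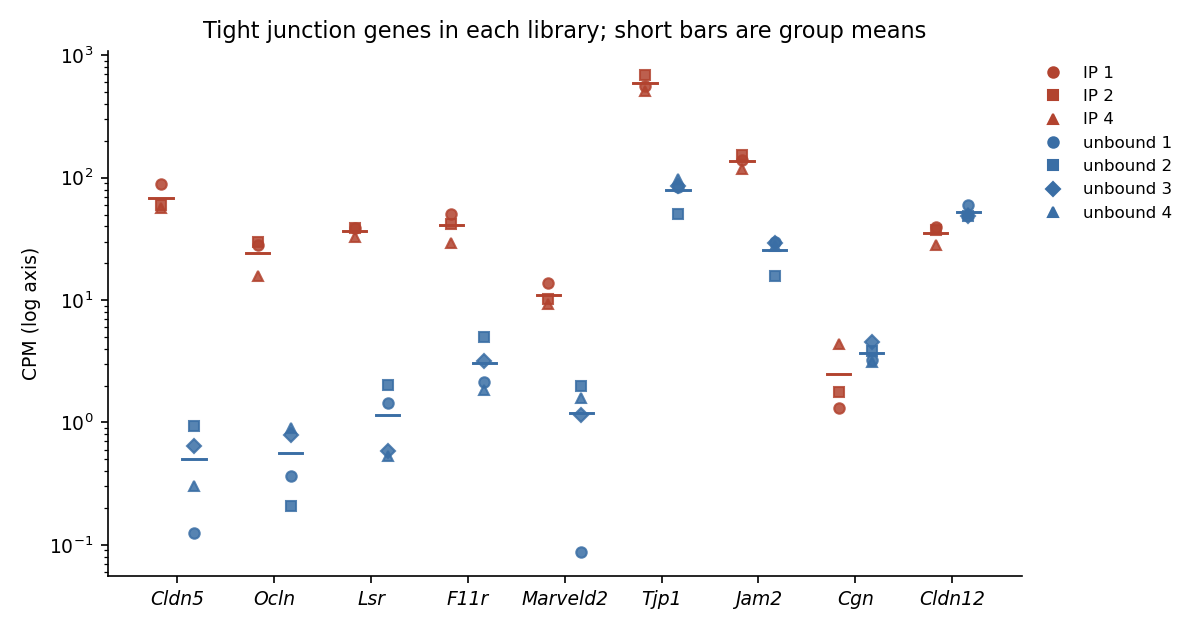
CPM (log axis) of the 9 tight junction genes in each of 3 IP and 4 unbound libraries, ordered by fold change, with a short bar at each group mean. From Cldn5 to Jam2 all IP points lie above all unbound points, Cgn overlaps, and Cldn12 in IP (28.4 to 39.4 CPM) lies under unbound (48.6 to 60.0 CPM).

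The claudins went apart. Cldn5, which encodes claudin-5, the strand-forming claudin of the brain endothelium, lies on chromosome 16 from 18776847 to 18778262 (GRCm38, plus strand, protein coding). It had 88.3, 59.8 and 56.2 CPM in IP 1, 2 and 4, against 0.125, 0.928, 0.645 and 0.300 CPM in unbound 1 to 4. The unbound values rest on 10, 54, 34 and 17 counts, and the lowest IP library was 60.6 times the highest unbound library. The gene rose 138-fold (log2 fold change 7.11 ± 0.58, SE, adjusted p = 7.94e-06) and ranked 144 of the 17654 tested genes from the highest fold change. Cldn12 (chromosome 5, 5489537 to 5514958, minus strand) encodes a claudin found in many tissues. It had 39.4, 37.5 and 28.4 CPM in IP 1, 2 and 4, against 60.0, 48.6, 48.6 and 51.2 CPM in unbound 1 to 4. The groups did not overlap and IP was the lower one. The log2 fold change was -0.57 ± 0.22 and not called (adjusted p = 0.0591). It was called lower by DESeq2 (adjusted p = 0.048), and in edgeR without unbound 2 (adjusted p = 0.0343), and over the alternatives with at least 2 IP libraries its adjusted p lay between 0.0335 and 0.264.

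The MARVEL genes Ocln and Marveld2 both rose, with different scatter. Ocln (chromosome 13, 100496507 to 100552718, minus strand) encodes occludin, a regulatory component of the strands. It had 28.1, 29.6 and 15.6 CPM in IP 1, 2 and 4, against 0.363, 0.206, 0.797 and 0.900 CPM in unbound 1 to 4. All IP libraries stood at least 17.3 times above the highest unbound library, though IP 4 was well under the other IP libraries. The log2 fold change was 5.44 ± 0.52 (adjusted p = 2.33e-05). Marveld2 (chromosome 13, 100595957 to 100616971, minus strand) encodes tricellulin, the MARVEL protein of tricellular corners. It had 13.8, 10.2 and 9.30 CPM in IP 1, 2 and 4, against 0.0877, 1.99, 1.16 and 1.57 CPM in unbound 1 to 4. Unbound 1, with 7 counts, was far under the other unbound libraries. The rise was 3.21 ± 0.72 on the log2 scale (adjusted p = 0.0054), with the widest error of the 9 genes.

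Lsr encodes LSR, also called angulin-1, which recruits tricellulin to corners (chromosome 7, 30957770 to 30973464, minus strand). It had 38.9, 39.2 and 32.7 CPM in IP 1, 2 and 4, against 1.44, 2.01, 0.588 and 0.530 CPM in unbound 1 to 4. The IP libraries were close to each other, and unbound 1 and 2 were higher than unbound 3 and 4. Lsr rose by 5.01 ± 0.47 on the log2 scale (adjusted p = 2.09e-05). Exons of Gm4673, on the opposite strand, cover 43.6% of its exon bases. The strand setting of the counting is not given in the sources used here, so reads of the pair cannot be told apart.

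The JAM genes Jam2 and F11r rose too. Jam2 (chromosome 16, 84774123 to 84825928, plus strand) encodes JAM-B, an adhesion protein of vascular endothelium. It had 138, 154 and 119 CPM in IP 1, 2 and 4, against 29.9, 15.8, 29.4 and 27.5 CPM in unbound 1 to 4. It had the smallest rise of the 7 genes, 2.42 ± 0.26 on the log2 scale (adjusted p = 5.54e-05), and its lowest IP library was 3.97 times its highest unbound library. F11r (chromosome 1, 171437535 to 171464603, plus strand) encodes JAM-A, carried by endothelial and epithelial cells, leukocytes and platelets. It had 50.9, 42.1 and 29.2 CPM in IP 1, 2 and 4, against 2.14, 4.98, 3.19 and 1.85 CPM in unbound 1 to 4. The groups stood apart, and F11r rose by 3.75 ± 0.38 (adjusted p = 3.54e-05). Of 5 platelet markers 2 rose (1 without IP 1, IP 4 or unbound 2), and the sum of all 5 was 58.4 to 73.7 CPM in IP and 2.78 to 7.34 CPM in unbound. Pf4, which macrophages can also express, supplied 51.0 to 60.3 CPM of the IP sum, and Itga2b had 1.32 to 1.92 CPM in IP and 1.29 to 4.999 CPM in unbound. The part of platelets or macrophages in the F11r rise was not tested.

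The plaque genes Tjp1 and Cgn differed from each other. Tjp1 (chromosome 7, 65296165 to 65527781, minus strand) encodes ZO-1, the scaffold under the strands, which many cell types use. It had 564, 695 and 515 CPM in IP 1, 2 and 4, against 84.4, 50.9, 86.1 and 97.3 CPM in unbound 1 to 4. The IP libraries all lay above the unbound ones, and Tjp1 rose 7.42-fold (log2 fold change 2.89 ± 0.28, adjusted p = 2.23e-05). Cgn (chromosome 3, 94760069 to 94786492, minus strand) encodes cingulin, a plaque protein first known from epithelia. It had 1.32, 1.76 and 4.403 CPM in IP 1, 2 and 4, against 3.22, 3.87, 4.57 and 3.11 CPM in unbound 1 to 4. IP 4 fell within the unbound range, and IP 1 and 2 lay under it. The log2 fold change was -0.57 ± 0.50 (adjusted p = 0.397), and -1.25 without IP 4 (adjusted p = 0.0789).

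Cgn was also the only member with its highest IP level in IP 4, while the other 8 members had their lowest IP level there. The endothelial marker sum was 2885, 2859 and 2017 CPM in IP 1, 2 and 4. Choroid plexus epithelium markers summed to 106, 41.5 and 269 CPM in these libraries, against 34.8 to 51.6 CPM in unbound. Transthyretin, Ttr, made up most of the sum in IP 1 and 4, with 82.5 and 236 CPM, and 10.2 CPM of it in IP 2. Their part in the Cgn values, and that of the neuronal RNA, was not tested. Without both IP 4 and unbound 2, 7 members were again called higher and 0 lower, against 4096 and 3957 of 18033 genes tested.

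The labels carry 1 of 2 index sequences and a lane number for each library. IP 1, 2 and 4 had lanes 2, 5 and 5, and unbound 1 to 4 had lanes 1, 3, 1 and 3. No lane number was shared by the groups, so lane and capture cannot be told apart in any result here. Within ACAGTG (2 IP, 2 unbound libraries) 6 members were called higher, as were 2190 of the 17663 genes tested there. Log2 fold changes there were 7.17 for Cldn5, 6.64 for Ocln, 4.50 for Lsr, 3.71 for F11r, 3.22 for Tjp1 and 2.68 for Jam2. Marveld2 lost its call within this index, at 3.54 ± 1.27 (adjusted p = 0.096), and Cldn12 and Cgn had -0.50 and -1.20. Within GTGAAA (1 IP, 2 unbound libraries) only log2 fold changes are given, since a single IP library shows no scatter. The values were 6.92 for Cldn5, 5.88 for Lsr, 4.21 for Ocln, 3.56 for F11r, 2.78 for Marveld2, 2.51 for Tjp1 and 2.08 for Jam2. In that index Cldn12 had -0.80 and Cgn 0.22. These values rest on IP 4 alone for the IP side, the library with the highest Cgn level in IP. The order of Lsr and Ocln differed between the index sequences, a difference that was not tested.

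Levels between genes are compared per kilobase of merged exons (GENCODE M21). In IP, Tjp1 was first with 75.7 ± 11.95 CPM per kb (SD, n = 3), followed by Cldn5 with 48.1 ± 12.4 and Jam2 with 22.6 ± 2.91. Lsr (16.99 ± 1.69) and F11r (15.3 ± 4.10) overlapped in their ranges over libraries. Cldn12 (8.30 ± 1.39), Ocln (5.79 ± 1.83) and Marveld2 (3.28 ± 0.701) followed, each overlapping the next, and Cgn was last with 0.414 ± 0.277 CPM per kb. In unbound RNA, Cldn12 was first with 12.3 ± 1.27 CPM per kb (SD, n = 4), overlapping Tjp1 with 10.2 ± 2.56, and Jam2 followed with 4.24 ± 1.10. The other 6 lay between 1.14 for F11r and 0.134 for Ocln, and each overlapped its neighbour in that order. Cldn5 stood in position 2 in IP and position 8 in unbound RNA, and the order within each group was the same with the longest annotated transcript as the length.

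As a share of the summed level per kb of the 9 genes, Cldn5 made up 24.4% ± 4.46 in IP and 1.26% ± 1.02 in unbound. Cldn12 made up 4.21% ± 0.138 in IP and 41.4% ± 3.92 in unbound. A share also falls when the other genes rise, and Cldn12 itself had 8.30 CPM per kb in IP and 12.3 in unbound. Tjp1 made up 38.7% ± 4.55 in IP and 33.7% ± 5.89 in unbound, and Jam2 11.6% ± 0.776 in IP and 14.0% ± 2.54 in unbound. Of the claudin pair, Cldn5 had the larger share in IP and Cldn12 in unbound RNA.

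**Figure D2:**
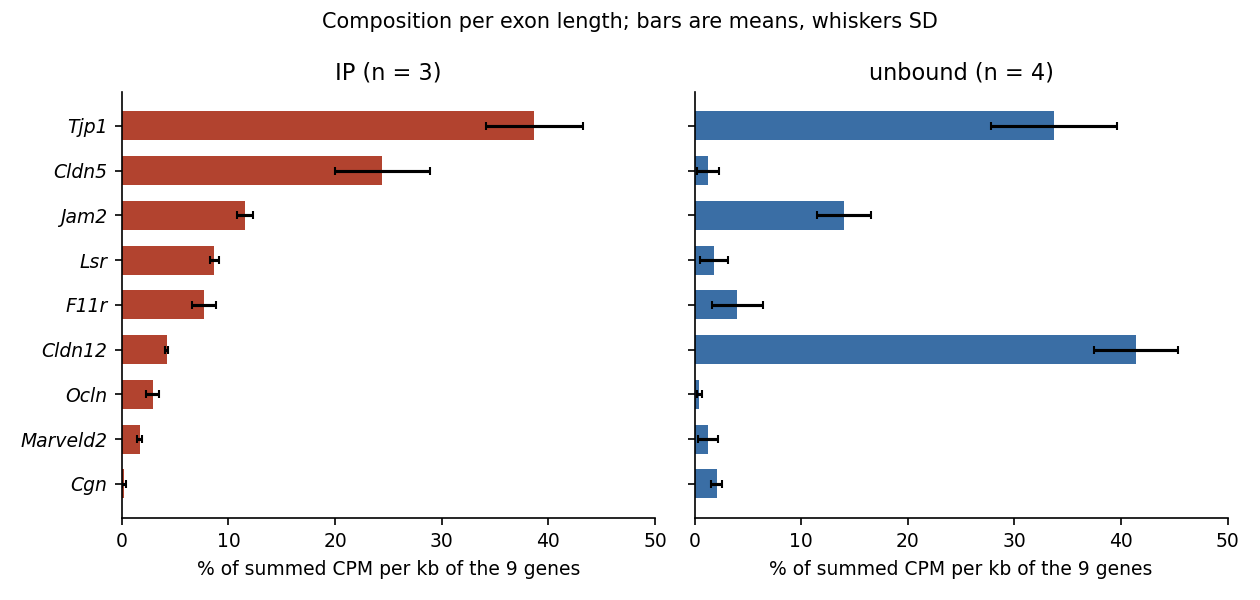
Share of each gene in the summed CPM per kb of the 9 tight junction genes (x axis, %), as mean and SD over 3 IP libraries (left) and 4 unbound libraries (right). Cldn5 holds 24.4% in IP and 1.26% in unbound, and Cldn12 4.21% in IP and 41.4% in unbound. Each share also depends on the levels of the other genes.

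Counts relative to Cldn5 within the same library need no scaling between libraries. Cldn5 has the highest fold change of the 9 genes, so the negative direction of these differences follows from using it as the yardstick. For members with fold changes far under that of Cldn5, the separation of the groups largely follows too. The test of these ratios therefore adds little to the fold changes. Of 8 ratios 6 differed between IP and unbound in an exact permutation test over 35 arrangements of libraries (2-sided, each p = 0.0286, the smallest possible, adjusted p = 0.0381). The log2 ratio of Cldn12 to Cldn5 averaged -0.94 ± 0.25 in IP and 7.03 ± 1.39 in unbound (SD, n = 3 and 4). The differences, IP minus unbound, were -8.14 for Cgn, -7.97 for Cldn12, -4.94 for Jam2, -4.47 for Tjp1, -3.58 for F11r and -3.56 for Marveld2. Single libraries moved 4 of these by over 1.5 times: Cldn12 had -7.37 and Jam2 -4.32 without unbound 1, Jam2 -5.57 and Tjp1 -5.09 without unbound 2, and Cgn -8.77 without IP 4. Lsr differed by -2.17 (exact p = 0.0571, adjusted p = 0.0653) and Ocln by -1.81 (exact p = 0.171), and neither passed.

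Of the 8 ratios to Cldn5, that of Marveld2 had the smallest SD within IP (0.064), and it is described here for that reason. The log2 ratio of Marveld2 to Cldn5 was -2.68, -2.55 and -2.60 in IP 1, 2 and 4, against -0.49, 1.10, 0.83 and 2.36 in unbound 1 to 4. Each unbound ratio rests on few counts of Cldn5. Pecam1, an adhesion protein of endothelial junctions, had more counts than Cldn5 in unbound 1, 3 and 4, and 41 against 54 counts in unbound 2. Against Pecam1 the IP ratios of Marveld2 had an SD of 0.204, and Lsr had the smallest SD (0.118). Cldn5 differed by 0.29 against Pecam1 on the log2 scale (exact p = 0.714). Over those 9 ratios no member passed after adjustment. Cldn12, Tjp1, Cgn, Jam2 and F11r each reached the smallest possible p, with adjusted p = 0.0514, and with adjusted p = 0.0457 over the 8 members without Cldn5.

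**Figure D3:**
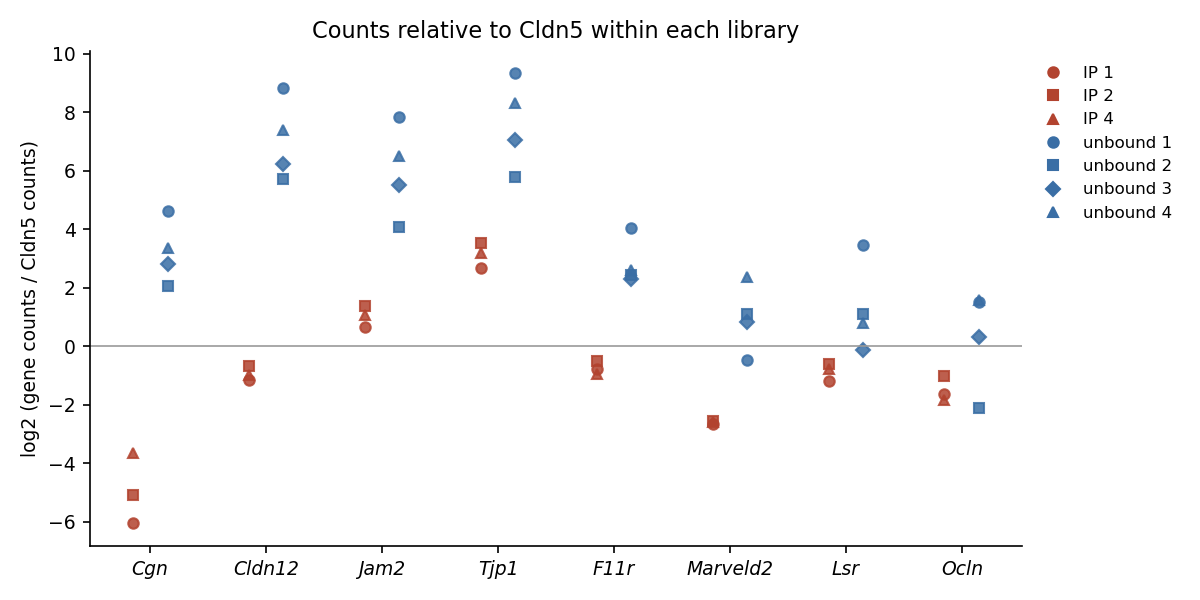
Log2 ratio of each gene's counts to those of Cldn5 in the same library (y axis), for 3 IP and 4 unbound libraries, ordered by the difference between groups. Groups stand apart for all genes but Ocln, and the IP points of Marveld2 (-2.68 to -2.55) nearly coincide.

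In the unbound libraries Cldn5, Ocln, Lsr and Marveld2 were low and uneven. Unbound 2 had the highest unbound level of Cldn5, F11r, Lsr and Marveld2, and the lowest of Ocln, Tjp1 and Jam2, while Cldn12 was lowest and nearly equal in unbound 2 and 3. Its endothelial marker sum, 69.2 CPM, was within the unbound range, while Pecam1 was lowest there (0.704 CPM, against 1.64 to 2.36 CPM in the other unbound libraries). The astrocyte marker sum was also lowest in unbound 2 (446 CPM, against 867 to 1205 CPM in the others), mostly through Slc1a2 (218 CPM, against 579.5 to 938.5 CPM), while Gfap, Aldh1l1 and Gjb6 were not lowest there. Their part in the Tjp1 and Jam2 values was not tested.

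The genes whose pattern over the 7 libraries was most like that of Cldn5 were Ms4a6b, Klf2, BC051552, Ehd2 and Clec4a1. Likeness was the Euclidean distance between log2 CPM profiles centred on each gene's mean, and it was 0.991, 1.23, 1.35, 1.48 and 1.52 for these 5 of 12017 genes. Among the members Ocln (3.69) and Lsr (3.71) were nearest to Cldn5, with 280 and 282 other genes nearer. Cldn12 (10.5) and Cgn (10.8) were farthest. The distance includes the shift between IP and unbound, and from Ocln to Jam2 it grew as the members' fold changes fell. It therefore adds little to the fold changes. Of the genes most like Cldn5, Ms4a6b, BC051552 and Clec4a1 had only 0 to 14 counts per unbound library.

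Other junction genes and 4 transcription factors linked to claudin-5, in 6 lists of 70 measured genes, gave 26 higher (the 4 factors among them), 7 lower and 24 not called of 57 tested, with a median log2 fold change of 0.86. The shares over all tested genes, 20.5% higher and 18.9% lower, are the background for each list below. The remaining 13 genes, all claudins, did not pass the low-count filter. Without IP 1 or IP 2 the lower genes numbered 3, and without unbound 3 they numbered 4. Without both IP 4 and unbound 2 the counts were 25 higher and 10 lower.

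**Figure D4:**
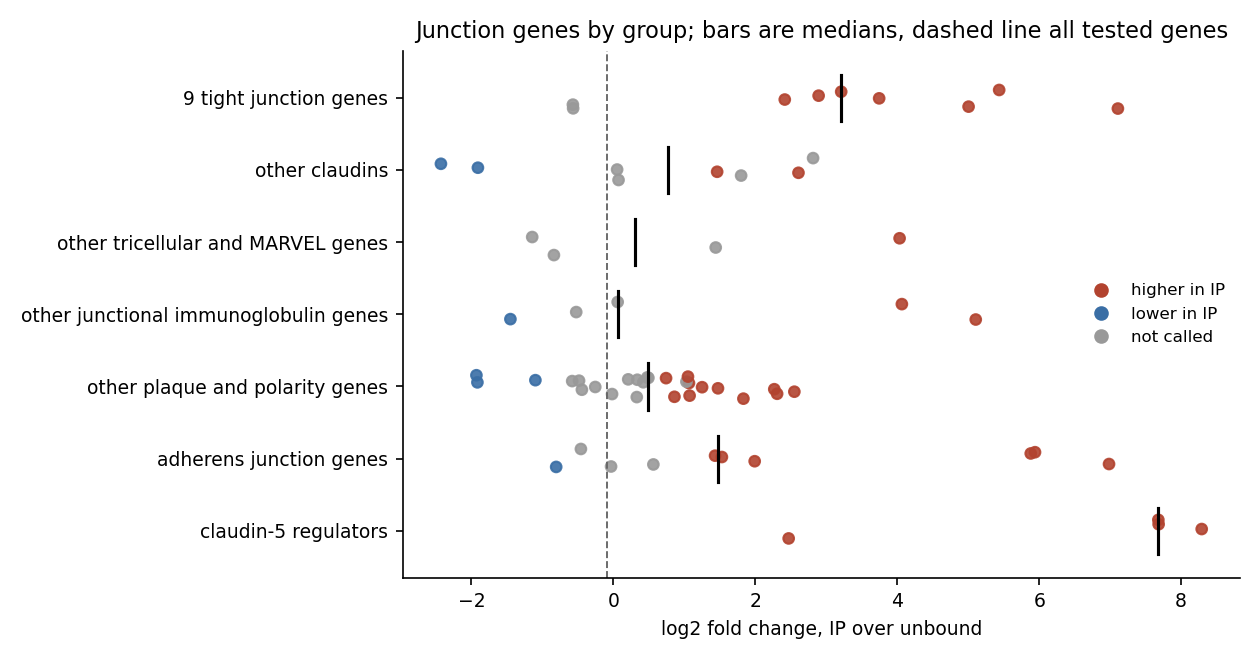
Log2 fold change of IP over unbound for the 9 tight junction genes and 6 lists of related genes, 1 point per tested gene, coloured by call, with a bar at each list's median and a dashed line at the median of all tested genes (-0.10). The 4 claudin-5 regulators lie between 2.47 and 8.29, while the other claudins spread from -2.43 to 2.81.

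Of the 21 other claudins measured, 8 were tested, with 2 higher, 2 lower and a median log2 fold change of 0.77. Cldn11, the claudin of oligodendrocyte myelin and the most abundant of them, had 17.7, 23.8 and 25.2 CPM in IP 1, 2 and 4, against 78.9, 108, 94.8 and 52.7 CPM in unbound 1 to 4. Cldn11 fell by 1.91 on the log2 scale (adjusted p = 0.000531), and all 7 oligodendrocyte markers fell, with sums of 829 to 1553 CPM in IP and 4997 to 6733 CPM in unbound. Cldn10 rose by 1.46 ± 0.41 (adjusted p = 0.0168), and lost its call without IP 1 or IP 2 (adjusted p = 0.0588 and 0.0702). Cldn2, a claudin of the choroid plexus epithelium, rose by 2.61 ± 0.81 (adjusted p = 0.026). It had 142, 64 and 151 counts in IP 1, 2 and 4, against 8, 8, 21 and 38 in unbound 1 to 4. Its call was lost without IP 1, IP 4 or unbound 3 (adjusted p = 0.0653, 0.0953 and 0.0511), and Ttr, the leading choroid plexus marker, had 3.33 ± 1.19 (adjusted p = 0.0462) with overlapping groups. The Ttr call was lost without IP 1, IP 4, unbound 1 or unbound 4, with DESeq2 and with no filter. Cldn14 fell by 2.43 with adjusted p = 0.0476, and lost its call without IP 1, IP 2, IP 4, unbound 2 or unbound 3 (adjusted p = 0.0745, 0.138, 0.124, 0.155 and 0.0839). Cldn15 had the highest value of the list, 2.81 ± 1.36 (adjusted p = 0.125), and was called without unbound 4 (5.57, adjusted p = 0.014). Cldn1, Cldn6 and Cldn19 were not called. Cldn3, a claudin of epithelia, had 0 counts in every IP library and 0, 0, 1 and 1 in unbound 1 to 4.

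Among tricellular and MARVEL genes outside the 9, Marveld1 rose by 4.03 ± 0.28 (adjusted p = 3.01e-06), with 40.3 to 60.2 CPM in IP and 2.35 to 3.95 CPM in unbound. The angulin genes Ildr1 and Ildr2 had 1.44 ± 1.06 and -0.84 ± 0.38 and Marveld3 had -1.14 ± 0.97, all not called (adjusted p = 0.303, 0.103 and 0.377). Ildr2 was called lower without unbound 2 (-1.07, adjusted p = 0.0164). Among junctional immunoglobulin genes, Esam, an endothelial cell adhesion molecule, rose by 5.11 ± 0.67 (adjusted p = 0.000209). Igsf5, also called JAM4, rose by 4.07 ± 0.99 (adjusted p = 0.0081), with 2.39 to 4.2 CPM in IP and 0 to 0.395 CPM in unbound. Jam3, the relative of Jam2 and F11r that encodes JAM-C, had 19.9 ± 0.823 CPM in IP and 19.0 ± 1.67 CPM in unbound and was not called (log2 fold change 0.06 ± 0.22, adjusted p = 0.852). Cxadr, the coxsackievirus and adenovirus receptor, fell by 1.45 (adjusted p = 0.0217), and lost its call without IP 1 or IP 2 (adjusted p = 0.0928 and 0.0607). Clmp had -0.52 ± 0.43 and was not called.

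Of 26 other plaque and polarity genes 11 rose, 3 fell and 12 were not called, with a median log2 fold change of 0.49. Pard3b, a relative of the polarity scaffold Pard3, rose most (2.55 ± 0.39, adjusted p = 0.000516). Amotl1, an angiomotin and the most abundant, had 0.34 ± 0.32 (adjusted p = 0.431). The 3 lower genes were Inadl, which encodes the polarity scaffold PATJ (-1.93 ± 0.27), the atypical protein kinase C gene Prkcz (-1.92 ± 0.25) and Pard6a (-1.10 ± 0.37). Pard6a lost its call without IP 1, IP 2, IP 4, unbound 2 or unbound 3 (adjusted p = 0.0776, 0.129, 0.0901, 0.0522 and 0.0517). Cgnl1, a relative of Cgn that encodes paracingulin, rose by 1.83 ± 0.31 (adjusted p = 0.00117). Tjp3 had 0 to 41 counts per IP library and 12 to 25 per unbound library and was not called.

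Adherens junctions lie beside tight junctions and hold cadherins tied to catenins. Of 10 genes 6 rose and 1 fell, with a median log2 fold change of 1.48. The endothelial genes Pecam1 (6.98 ± 0.40), Ptprb, which encodes the phosphatase VE-PTP (5.94 ± 0.53), and Cdh5, which encodes VE-cadherin (5.88 ± 0.62), rose in the range of Cldn5, Ocln and Lsr. The catenin genes Ctnnd1, Ctnna1 and Jup rose by 1.99 ± 0.24, 1.53 ± 0.21 and 1.43 ± 0.26. Ctnnb1 had 0.56 ± 0.23 (adjusted p = 0.0727), Cdh2, the neural cadherin, -0.46 ± 0.22 (adjusted p = 0.116, and adjusted p = 0.0347 without unbound 2) and Pvrl2 -0.03 ± 0.44. Plekha7 fell by 0.81 (adjusted p = 0.0252), and lost its call without IP 1, IP 2, IP 4 or unbound 3 (adjusted p = 0.0615, 0.121, 0.057 and 0.0581).

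All 4 transcription factors listed for their link to claudin-5 in endothelial cells rose. The list was not split by whether a factor raises or lowers claudin-5. Sox17 rose by 8.29 ± 0.62, Erg by 7.68 ± 0.52, Sox18 by 7.68 ± 0.35 and Foxo1 by 2.47 ± 0.22 on the log2 scale, with adjusted p between 4.42e-07 and 1.45e-05. Erg, an ETS factor of the endothelium, had 100 ± 8.62 CPM in IP and 0.484 ± 0.294 CPM in unbound (SD, n = 3 and 4).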

How the data were processed

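Each deposited file gave raw read counts, one whole number for each gene symbol. The submitters' processing notes name STAR 2.0.0e, HTSeq and the build mm10. The sources used here give no annotation version and no strand setting. The 6 rows that name no gene held 42.0% to 59.8% of all counts in a library and were left out. Among them, ambiguous counts, which matched several genes, were 1.43% to 1.63% in IP and 7.26% to 11.5% in unbound libraries. Counts outside any annotated gene were 13.4% to 18.6% in IP and 11.3% to 12.9% in unbound. Counts aligned to several places were 33.0% to 39.6% in IP and 17.6% to 34.6% in unbound. There the groups overlapped only because unbound 2 (34.6%) passed IP 1 (33.0%). The part of these differences in the fold changes was not tested. The test was that of edgeR 4.0.16 (R 4.3.3), with filterByExpr, TMM scaling and the robust quasi-likelihood test over 17654 genes, adjusted by Benjamini-Hochberg at 0.05. CPM are per effective library size, and 3 counts correspond to 0.0376 to 0.059 CPM. Each log2 fold change has a standard error derived from its F statistic. The floor of 3 counts covers counting error only. The test was checked on simulated counts, where it called most of the larger and few of the smaller changes. Far fewer genes changed there than were called here, so its recovery cannot be carried over to these data. A gene not called may still have changed. A chi-square check for a library deposited more than once found none.

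Protein features had been planned and were not computed. The members, gene lists and tests were chosen with earlier results of these data known. All members were named. Every gene of a list of at most 10 could be named, and of longer lists the most abundant, the extremes and calls against the majority. Cldn1, Cldn2, Cldn3, Cldn6, Cldn10, Cldn19, Tjp3, Cgnl1, Itga2b, Gfap, Aldh1l1 and Gjb6 were chosen after their values were seen. Ratios used an added count of 0.5. Coordinates and lengths are from GENCODE M21 (GRCm38). Alternatives were RLE, library size only, no filter, 1 CPM in 3 libraries, DESeq2 1.42.0, limma voom (3.58.1), the replicate block, the index sequence and leaving out libraries.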

Additional observations from a re-analysis of the deposited data

Results flagged for a closer look

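Jam2 in unbound 2, with 15.8 CPM, lay far under the other unbound libraries (27.5 to 29.9 CPM), a gap of 0.834 of the group's range, past Dixon's critical value for 4 samples. Of the 9 unbound groups examined this way it was the single one. Chance flags about 1 in 20 for each group, so a flag among 9 groups can readily arise by chance. Without unbound 2 the Jam2 rise kept its call.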

How the results depend on the processing

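The 7 members called higher kept their calls under every alternative with at least 2 IP libraries, except Marveld2 within index ACAGTG. The count of members called lower was 1 (Cldn12) in place of 0 with the 1 CPM filter, DESeq2 or the index sequence as covariate. It was 0 to 1 when 1 library was left out (1 without unbound 2). Cgn reversed to 0.22 within index GTGAAA. The Jam2, Tjp1 and F11r log2 fold changes lay between 2.24 and 2.52, 2.73 and 2.999, and 3.57 and 4.09 without 1 library, and that of Cldn5 between 6.76 and 7.63. Of the other junction genes, 7 were lower, against 3 within index ACAGTG and 3 to 8 without 1 library. Over all genes, 2190 were higher and 1650 lower within ACAGTG, and 1751 to 3632 were lower without 1 library (1899 without IP 1, 1751 without IP 2), against 3328. The cause of these changes was not tested, beyond the fewer libraries fitted. Ratios called lower numbered 6 against Cldn5. Against Pecam1 they numbered 0 adjusted over 9 ratios and 5 adjusted over the same 8, the second chosen after seeing the data. The median of all genes was -0.10 with TMM and 0.01 with library size only.

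Deviations of same-numbered libraries correlated weakly (-0.03, 0.04 and 0.16), and the numbers were not taken as pairs. With the replicate block over 3 numbered pairs, 7 members were higher and 0 lower, against 3153 and 2530 of 17408 genes tested. Under the block 3 other junction genes were lower, against 4 in the same libraries without it, a fit added after seeing the data. IP 1 correlated best with unbound 2 (0.199), while IP 2 and IP 4 each correlated best with the unbound library of the same number. Whether same-numbered libraries are pairs cannot be told from these values. Depth limits Cldn5, Ocln, Lsr and Marveld2 in unbound RNA, at 7 to 117 counts per library.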
